A study of Rattus norvegicus with 16 samples.

Results

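The urea cycle and the breakdown of tyrosine, tryptophan and serine were followed through 8 genes of liver nitrogen metabolism, Cps1, Otc, Ass1, Asl, Tat, Tdo2, Hpd and Sds. The members were chosen by name, as the probes whose gene name in the array files is one of these, and each of the 8 was measured by 1 probe among the 26269 gene names on the array. Expression was measured in rat H35 cells, a hepatoma line that keeps part of the liver's enzyme programme, on 16 single-colour Agilent arrays, 4 biological replicates for each of 4 groups. CN-10 is a stable clone that carries a negative control shRNA plasmid, 4-18 is a stable clone with the shRNA4 plasmid, 3-44 is a stable clone with the shRNA3 plasmid, and shRNA3T is an uncloned pool that received the shRNA3 plasmid by transient transfection and was enriched by G418. The plasmids shRNA3 and shRNA4 target Pdrg1, which encodes a small prefoldin-like protein. All groups grew in DMEM with 10% serum and 2 mM glutamine and were put under 1.8 mg/ml G418 from 48 h after transfection, for 2 weeks. CN-10, 4-18 and 3-44 had 2 more weeks at 4 mg/ml, which shRNA3T did not, so the comparison of shRNA3T with CN-10 also sets a pool against a clone. Each stable group is 1 clone, and its 4 replicates do not show how clones vary.

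The urea cycle turns ammonia released from amino acids into urea for excretion. Cps1 and Otc start it in the mitochondria, and Ass1 and Asl carry it on in the cytosol. Tat and Sds remove the amino group of tyrosine and serine, and Tdo2 starts the breakdown of tryptophan. In liver these 3 enzymes are known to be induced by glucocorticoids, glucagon or feeding on protein, and Tat induction is a classic readout of rat hepatoma lines.

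No slide held arrays of more than 1 group, so a slide effect and a group effect cannot be told apart, and the 4-18 slide was scanned on another day than the other 3. The 75th percentile of the raw spot signal was 1614 to 1946 on the 4-18 arrays, the dimmest, and 2328 to 3692 on the others. Pdrg1, the targeted gene, averaged 13.64 ± 0.22 in CN-10 on the log2 scale (SD, n = 4), against 12.87 ± 0.87 in 4-18, 12.65 ± 0.51 in 3-44 and 12.79 ± 0.27 for shRNA3T. Its log2 fold changes against CN-10 were -0.77, -0.99 and -0.85, with limma adjusted p = 0.129, 0.105 and 0.143 (0.0176, 0.0108 and 0.0183 with the replicate block), although every silenced array was below every CN-10 array (exact permutation p = 0.0286 in each comparison, two-sided, the smallest that 4 against 4 can give). Of 17 hepatocyte markers, 14 exceeded background clearly on each CN-10 array, 12 on each 4-18 array, 15 on each 3-44 array and 15 on each shRNA3T array. Apoh did so on no array, and Rbp4 only on arrays of 4-18, while of 14 markers of leukocytes, fibroblasts, endothelium and bile duct 7, 2, 6 and 6 were detected on all 4 arrays of the same groups.

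Among the 8 members, the array read out Cps1, Ass1, Asl and Tat, and hardly the rest. These 4 were well above background on all 16 arrays. Otc was so on 1 CN-10 and 1 3-44 array, Tdo2 and Sds on 1 CN-10 array each, and Hpd on 1 3-44 and 3 shRNA3T arrays. A gene was called when it changed at least 2-fold with a limma adjusted p under 0.05, adjusted over all probes of the array. Asl was the member called in 4-18 against CN-10 (1 of 8 members, where 6.15% of all genes were called, or 9.76% of those detected in at least 1 group) and Cps1 the member called in shRNA3T against CN-10 (1 of 8, against 2.39%, or 3.81% of those detected). In 3-44 against CN-10 none of the 8 was called by limma, where 1.47% of all genes and 2.35% of those detected were, and 4 members had an unadjusted limma p under 0.05. The share of all genes with an unadjusted p under 0.05 was not taken, so such counts, here and below, are not set against a share. With the adjusted p alone, 3 members passed in 4-18 (24.1% of all genes), 1 in 3-44 (8.14%) and 2 in shRNA3T (12.2%). The counts of called members and of those that passed the adjusted p are near what the shares of all genes give for 8 genes. They set the members apart in no comparison. The 8 members had a median log2 fold change of -0.07 in 4-18, of 0.07 in 3-44 and of 0.08 for shRNA3T. That of all genes lay between -0.01 and 0.00. The 3 comparisons share the CN-10 arrays.

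**Figure D1:**
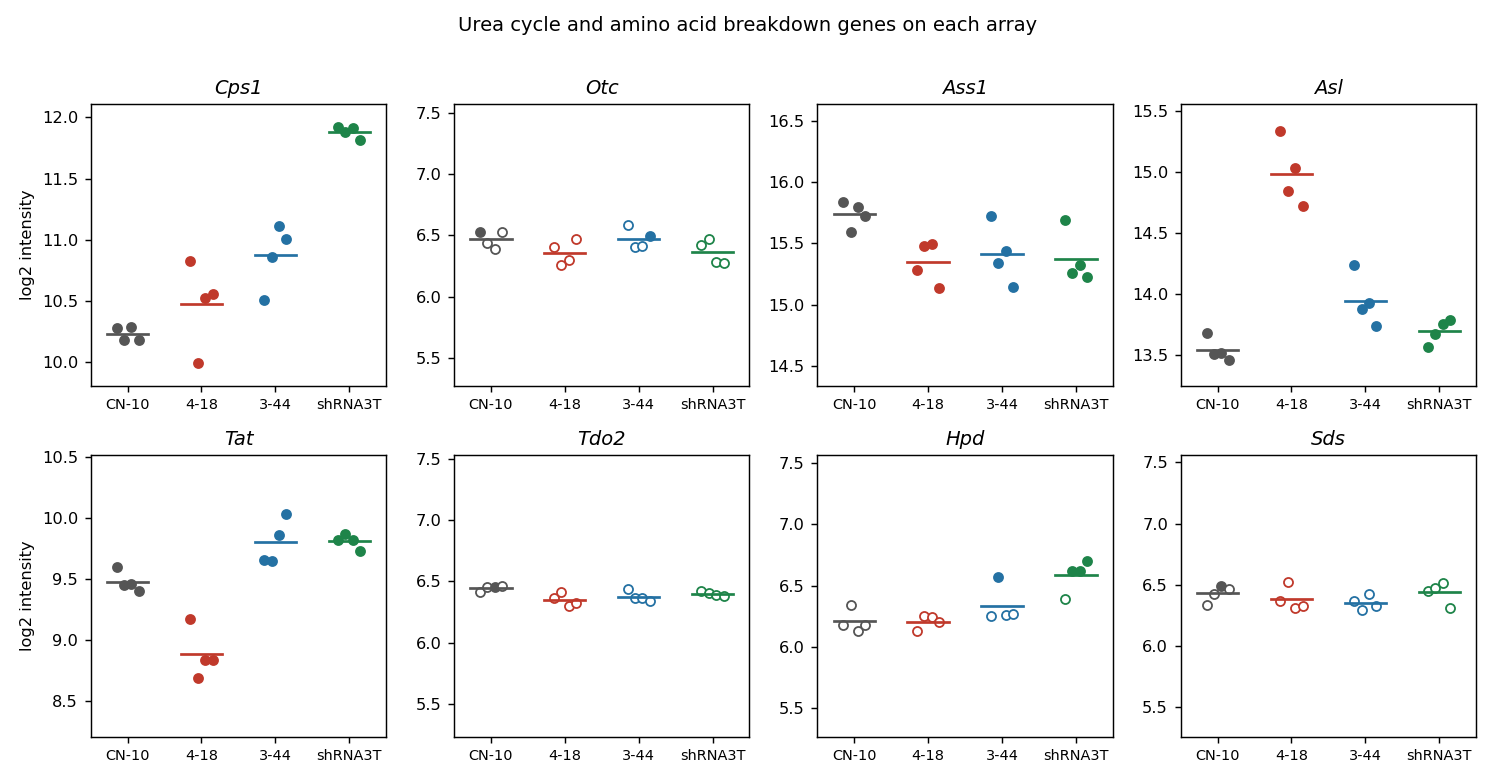
Log2 intensity (normexp background correction, quantile normalization) of the 8 members on each of the 16 arrays, with a panel for each gene and the same span on every axis. Filled points are well above background, open points are not, and lines are means of 4 arrays. Asl stands apart in 4-18 and Cps1 in shRNA3T, Tat is lowest in 4-18, and Otc, Tdo2, Hpd and Sds lie near the array's floor.

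Cps1, which makes carbamoyl phosphate from ammonia and is the rate-setting step of the cycle, was highest in the transient pool. Its probe of 60 bases reads chr9:66002449-66003777 of rn4, and since its ends lie 1329 bases apart it crosses at least 1 intron. The probe is shown because the largest rise of a member rests on this single spot.
Cps1 probe: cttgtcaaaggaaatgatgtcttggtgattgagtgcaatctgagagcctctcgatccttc
The log2 intensities of Cps1 were 10.27, 10.18, 10.29 and 10.18 on the CN-10 arrays and 11.92, 11.88, 11.91 and 11.81 on the shRNA3T arrays. The 3-44 arrays read 10.51, 10.86, 11.11 and 11.00 and the 4-18 arrays 10.82, 9.99, 10.53 and 10.55. All shRNA3T arrays were above all others and all 3-44 arrays above all CN-10 arrays, while those of 4-18 overlapped both clones. Cps1 was 3.13-fold higher in shRNA3T than in CN-10 (log2 fold change 1.65, SE 0.15, limma adjusted p = 4.48e-06). In 3-44 the log2 fold change was 0.64 (SE 0.15, limma adjusted p = 0.0154), under the 2-fold limit. It was 0.95 with 75th percentile scaling of the processed signal, and it missed the adjusted limit with median centring (limma adjusted p = 0.225), with the deposited unscaled values (0.672) and without 3-44 replicate 3 (0.0557) or 4 (0.0502). In 4-18 it was 0.24 (95% confidence interval -0.08 to 0.56, limma adjusted p = 0.29), a sign that turned with median centring (-0.17) and with the deposited unscaled values (-0.42). From the top, the order of the means was 11.88 ± 0.05 in shRNA3T, 10.87 ± 0.26 in 3-44, 10.47 ± 0.35 in 4-18 and 10.23 ± 0.06 in CN-10 (SD, n = 4). Of the neighbours in this order, 4-18 and CN-10 did not differ beyond their spread. The difference between 4-18 and 3-44 was -0.40 (95% confidence interval -0.72 to -0.08) and missed the adjusted limit (limma adjusted p = 0.0723), but 9 of 31 alternatives took it past that limit. It was -0.79 with 75th percentile scaling of the processed signal (limma adjusted p = 0.0058), -0.77 with the processed signal quantile normalized (0.00505), -0.85 with median centring (0.0141) and -0.97 with the deposited unscaled values (0.0185), and it also passed without 4-18 replicate 1 (-0.51) or 3-44 replicate 1 (-0.52).

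shRNA3T and 3-44 carry the same shRNA3 plasmid, and Cps1 was 2.01-fold lower in 3-44 than in shRNA3T (log2 difference -1.01, limma adjusted p = 0.000444). Leaving out 3-44 replicate 1 brought this to -0.89, leaving out shRNA3T replicate 1 to -0.99 and leaving out shRNA3T replicate 3 to -0.999, each just under the limit of 2-fold. In the raw spot signals, before any correction or scaling, Cps1 read 1204 to 1620 in CN-10 and 3887 to 5250 in shRNA3T. The groups were thus apart before scaling. In RNA of a whole pool, more cells that express Cps1 and more Cps1 RNA per cell cannot be told apart. Of the 17 hepatocyte markers, 7 were called higher and 0 lower by limma in shRNA3T against CN-10, where 1.2% and 1.19% of all genes were, and 11 had an unadjusted p under 0.05. The 7 included the gluconeogenic enzymes Pck1 and G6pc, at 5.87-fold and 6.25-fold, while Afp, alpha-fetoprotein, was 1.83-fold lower (limma adjusted p = 0.000108). G6pc was also called higher in 4-18 (3.86-fold) and 3-44 (4.22-fold), and Pck1 in 3-44 (2.40-fold) but not in 4-18. In 3-44 against CN-10, 6 of the 17 were called higher and 0 lower by limma (11 with an unadjusted p under 0.05), where 0.685% and 0.788% of all genes were. The log2 of the summed intensity of the 17, to which the brightest add most, was 19.25 to 19.62 in shRNA3T and 18.83 to 19.24 in CN-10. In 3-44 it was 18.85 to 19.90, a range that overlaps both. Their part in the Cps1 difference was not tested.

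Ass1 and Asl, which join citrulline with aspartate and then split the product into arginine and fumarate, catalyse consecutive steps, and they moved in opposite directions in 4-18. The Asl probe reads chr12:27720030-27720089 of rn4 and the Ass1 probe chr3:10620727-10622079, with ends 1353 bases apart. They are shown because this contrast rests on 1 spot of each.
Asl probe: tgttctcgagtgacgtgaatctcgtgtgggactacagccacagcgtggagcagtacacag
Ass1 probe: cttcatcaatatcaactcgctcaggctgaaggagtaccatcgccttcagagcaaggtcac
Asl had log2 intensities of 13.69, 13.51, 13.52 and 13.46 in CN-10 and of 15.34, 14.84, 15.03 and 14.72 in 4-18. In 3-44 they were 14.24, 13.88, 13.93 and 13.74, and in shRNA3T 13.57, 13.67, 13.76 and 13.79. Every 4-18 array was above every array of the other groups, every 3-44 array was above every CN-10 array, and shRNA3T overlapped both CN-10 and 3-44. Asl was 2.71-fold higher in 4-18 than in CN-10 (log2 fold change 1.44, SE 0.13, limma adjusted p = 1.09e-06). The changes of 0.40 in 3-44 (limma adjusted p = 0.0711) and 0.15 in shRNA3T (95% confidence interval -0.12 to 0.42, limma adjusted p = 0.572) did not pass. Against the other silenced groups Asl in 4-18 was 2.05-fold above 3-44 (limma adjusted p = 2.92e-05) and 2.44-fold above shRNA3T (4.47e-06).

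The size of the Asl difference depended on the processing. Median centring gave a log2 fold change of 0.95 in 4-18 against CN-10 and the deposited log2 values without scaling gave 0.72, both under the 2-fold limit, whereas the other 29 of 31 alternatives kept the call. These alternatives also shifted the median of all probes by 0.39 and 0.15, and relative to that median Asl was higher by 0.56 and 0.57. In the raw signals Asl read 12855 to 15742 in CN-10 and 18204 to 26637 in 4-18. The groups were thus apart although the 4-18 arrays were the dimmest of all. The call against 3-44 was lost with 75th percentile scaling of the processed signal (0.71), the processed signal quantile normalized (0.67), median centring (0.51, limma adjusted p = 0.159) and the deposited unscaled values (0.42, 0.339), and without 4-18 replicate 1 (0.92) or 3-44 replicate 4 (0.97). The call against shRNA3T was lost under the same 4 alternatives, at 0.99, 0.90, 0.81 and 0.61, the last with limma adjusted p = 0.108.

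Ass1 went the other way in 4-18. Its log2 intensities were 15.84, 15.60, 15.79 and 15.73 in CN-10, 15.28, 15.48, 15.49 and 15.13 in 4-18, 15.72, 15.34, 15.44 and 15.14 in 3-44, and 15.69, 15.26, 15.32 and 15.22 in the shRNA3T pool. All 4-18 arrays were below all CN-10 arrays, and in each of the other groups 1 array reached into the CN-10 range. The log2 fold changes were -0.39 in 4-18 (SE 0.13, limma adjusted p = 0.0416), -0.33 in 3-44 (limma adjusted p = 0.166) and -0.36 in shRNA3T (limma adjusted p = 0.0921). The 4-18 difference is close to the limit, since 10 of 31 alternatives took its limma adjusted p above 0.05, among them leaving out CN-10 replicate 1, 3 or 4 or 4-18 replicate 1 or 4 (up to 0.114). Its size also depended on the processing, at -0.80 with median centring (limma adjusted p = 0.0265) and -1.05 with the deposited unscaled values (0.00495), which is past the 2-fold limit. Relative to the median of all probes these were -1.19 and -1.20, so whether Asl or Ass1 changed more in 4-18 turned with the processing. Differences of Ass1 between the silenced groups were -0.06 to 0.04 and none passed. Those of 4-18 also moved with the processing, with the deposited unscaled values to -0.73 against 3-44 (limma adjusted p = 0.056) and -0.73 against shRNA3T (0.0503). The brightest Ass1 spot read 71042 and no spot had a saturation flag.

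**Figure D2:**
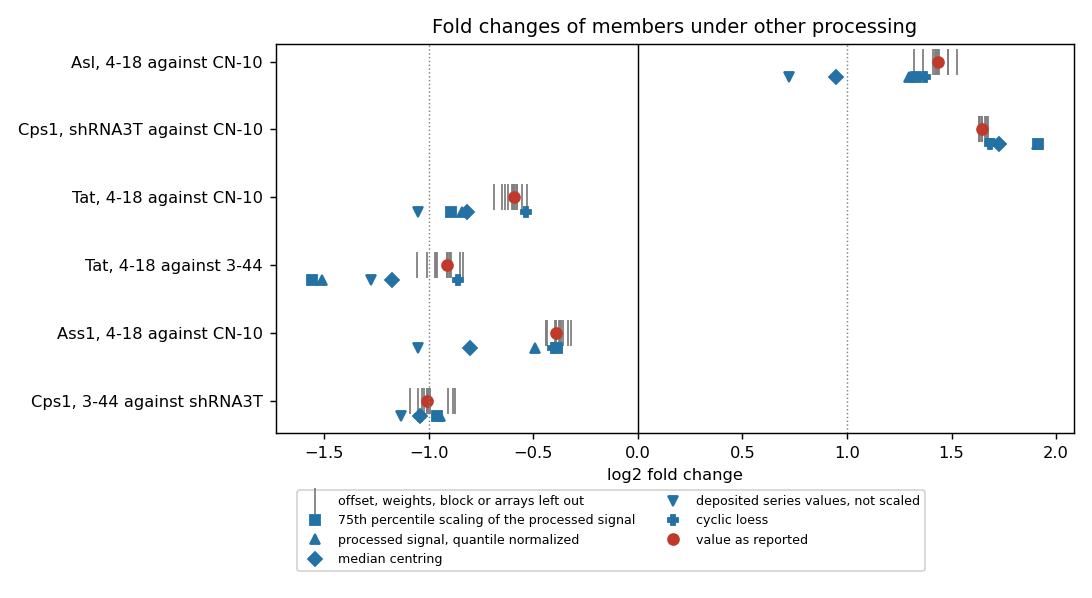
Log2 fold changes of 6 differences among the members under each alternative. The red point is the value as reported, blue symbols are other scalings or signals and grey ticks are the remaining alternatives, with dotted lines at the 2-fold limit. Asl in 4-18 runs from 0.72 to 1.52 and Cps1 in shRNA3T from 1.63 to 1.91.

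Otc, the mitochondrial enzyme that makes citrulline, was near background in every group. Its group means were 6.47 ± 0.07 in CN-10, 6.36 ± 0.10 in 4-18, 6.47 ± 0.08 in 3-44 and 6.36 ± 0.10 in the shRNA3T pool (SD, n = 4), where the lowest signal well above background on an array was itself about as high (6.30 on CN-10 replicate 1). No Otc difference passed. Against CN-10 it changed by -0.11 (4-18), 0.00 (3-44) and -0.11 (shRNA3T) on the log2 scale, with limma adjusted p of 0.322, 0.985 and 0.456. On the processed signal, which subtracts the background without an offset, Otc was called lower in 4-18 and in shRNA3T than in CN-10 and in 3-44 when quantile normalized. With 75th percentile scaling of that signal it was called in shRNA3T against CN-10 and in no other comparison. None of the arrays of the first 2 groups and only 1 array each of CN-10 and 3-44 had Otc well above background, so no fold is given.

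**Figure D3:**
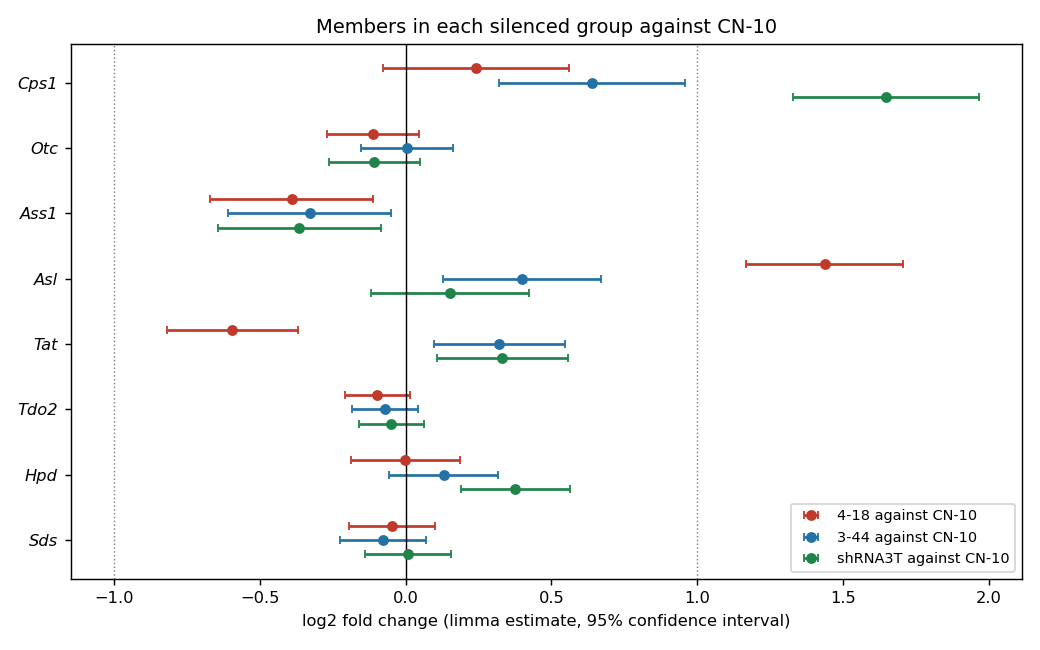
Limma log2 fold changes of the 8 members in each silenced group against CN-10, with 95% confidence intervals from the fit to 16 arrays. Dotted lines mark the 2-fold limit. Cps1 in shRNA3T and Asl in 4-18 lie past it, and Tat is the detected member whose interval is below 0 in 4-18 and above 0 in 3-44 and shRNA3T.

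Tat, the aminotransferase that starts tyrosine breakdown, was lower in 4-18 than in every other group. The sequence of its probe, at chr19:39863848-39863907 of rn4, is given because Tat is the enzyme for which these cells are best known.
Tat probe: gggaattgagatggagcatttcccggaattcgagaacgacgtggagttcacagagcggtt
Its log2 intensities were 9.60, 9.45, 9.46 and 9.40 in CN-10, 9.17, 8.69, 8.84 and 8.84 in 4-18, 9.66, 9.65, 9.86 and 10.03 in 3-44, and 9.82, 9.87, 9.82 and 9.73 in the shRNA3T pool. All 4-18 arrays were below all CN-10 arrays, and all arrays of 3-44 and shRNA3T were above all CN-10 arrays. Tat was 1.51-fold lower in 4-18 than in CN-10 (log2 fold change -0.59, SE 0.11, limma adjusted p = 0.000685). The adjusted p passed under 31 of 31 alternatives, while the size moved to -0.89 with 75th percentile scaling of the processed signal, -0.82 with median centring and -1.05, past the 2-fold limit, with the deposited unscaled values. The log2 fold changes of 0.32 in 3-44 and 0.33 in shRNA3T came with limma adjusted p of 0.0824 and 0.0549 and did not pass, though 5 and 10 of 31 alternatives took them past the adjusted limit. With 75th percentile scaling of the processed signal they were 0.67 (limma adjusted p = 0.00633) and 0.60 (0.00766). Directly compared, Tat was 1.89-fold lower in 4-18 than in 3-44 (limma adjusted p = 1.59e-05) and 1.90-fold lower than in shRNA3T (1.67e-05), while 3-44 and shRNA3T differed by -0.01 (95% confidence interval -0.24 to 0.21). Both differences lie just inside the 2-fold limit, and 6 of 31 alternatives put each of them past it. Without 4-18 replicate 1 they were -1.01 and -1.02.

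The raw Tat signal was 730 to 883 in CN-10 and 287 to 356 in 4-18. The 4-18 arrays were also the dimmest of all, so this raw gap does not separate Tat from the brightness of the arrays. Of the 17 hepatocyte markers, 5 were called lower and 2 higher in 4-18 against CN-10, where 3.54% and 2.62% of all genes were, and their median log2 fold change was -0.09. The log2 of the summed intensity of the 17 was 18.68 to 19.17 in 4-18 and 18.83 to 19.24 in CN-10. Apoa1 (4.33-fold lower), a component of high density lipoprotein, and Ahsg (2.45-fold lower, but with a log2 fold change of -0.13 when all its probes were averaged), a secreted liver glycoprotein, were among the 5. The 2 called higher were Ttr, a thyroid hormone carrier, at 7.62-fold and G6pc at 3.86-fold. Both were also called higher in 3-44 (7.17-fold and 4.22-fold) and in shRNA3T (5.22-fold and 6.25-fold). The part of these markers in the Tat difference was not tested.

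The remaining members, Hpd, Tdo2 and Sds, gave little signal in these cells. Hpd, which acts after Tat on the tyrosine route, was well above background on 3 of 4 shRNA3T arrays (6.39, 6.62, 6.62 and 6.70) and on none of CN-10 (6.18, 6.34, 6.13 and 6.18) or 4-18. Every shRNA3T array was above every CN-10 array, but by little. The measured means of 6.58 and 6.21 differed by 0.38 (limma adjusted p = 0.0101). No fold is given for Hpd, because no CN-10 array was well above background. Replicate 1 of shRNA3T was not either, at 6.39, where that array's lowest signal well above background was 6.49. Against 4-18, likewise without an array well above background, the measured log2 difference was -0.38 for 4-18 against shRNA3T (limma adjusted p = 0.00597). Its sign turned under 2 of 30 alternatives. Tdo2, which opens the tryptophan ring, and Sds, which deaminates serine, showed no difference that passed in any of the 6 comparisons. On the processed signal Sds was called in 3 of the comparisons with 3-44 (lower in 3-44 in each, and each under 1 of 2 scalings) and Hpd was called higher in shRNA3T than in CN-10, but Sds was well above background on no array of 4-18, 3-44 or shRNA3T, so no fold is given. Their group means spanned 6.35 to 6.45 and 6.35 to 6.44.

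When the silenced groups were set against each other, Asl and Cps1 were again the members called. Asl was called in 4-18 against 3-44 (1 of 8 members, where 4.98% of all genes were called). In 4-18 against shRNA3T both were called, Asl higher and Cps1 2.65-fold lower in 4-18 (2 of 8, against 4.56%). Between 3-44 and shRNA3T the called member was Cps1 (1 of 8, where 2.12% of all genes were). With the adjusted p alone, 2 members passed in 4-18 against 3-44 (22.5% of all genes), 4 in 4-18 against shRNA3T (20.5%) and 1 in 3-44 against shRNA3T (10.9%). Counted by arrays that did not overlap, 4, 3 and 3 members were apart from CN-10 in 4-18, 3-44 and shRNA3T, where 23.3%, 16.1% and 21.9% of all genes were. The corresponding counts were 3 for 4-18 against 3-44 (21.7%), 4 for 4-18 against shRNA3T (22.4%) and 1 for 3-44 against shRNA3T (22%).

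The enzymes around the members were read from 6 lists of 86 genes, of which 81 are on the array and 68 were detected throughout 1 or more groups. In 4-18 against CN-10, 8 of the 81 were called higher and 4 lower, in 3-44 2 and 1, and in shRNA3T 3 and 2. The split in 4-18 moved with the processing, to 9 and 7 with 75th percentile scaling of the processed signal, 11 and 8 with the processed signal quantile normalized, 8 and 9 with median centring, 6 and 6 with cyclic loess, and 3 and 14 with the deposited unscaled values. The shares of all genes called higher and lower were 2.62% and 3.54% in 4-18, 0.685% and 0.788% in 3-44, and 1.2% and 1.19% in shRNA3T. These shares belong to the fit as reported and were not taken under the other processing. The median log2 fold change of the 81 was 0.09, 0.10 and 0.02. Of the 14 genes called in any of these comparisons, the 10 with the largest change are named here.

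Among the 16 genes of nitrogen supply to the cycle, Agmat, annotated as agmatinase, was the one called in all 3 silenced groups. Its 4 arrays ran from 8.91 to 9.13 in CN-10, from 11.09 to 11.65 in 4-18, from 10.72 to 10.98 in 3-44 and from 10.87 to 11.28 in the shRNA3T pool. No silenced array came within the CN-10 range, and the rises were 4.76-fold, 3.51-fold and 4.10-fold (limma adjusted p = 4.82e-09, 2.32e-07 and 5.02e-08). Gls2, the liver glutaminase that releases ammonia from glutamine, rose 2.03-fold in 4-18 and 2.24-fold in shRNA3T and was 1.99-fold higher in 3-44 (limma adjusted p = 0.00716). Its CN-10 mean rests on 3 arrays, because 1 spot had an outlier flag. The Gls2 call in 4-18 held under 21 of 31 alternatives and was lost without CN-10 replicate 1 (0.98) or 2 (0.86) and without 4-18 replicate 2 (0.87) or 4 (0.92). It was also lost under alternatives that lowered it further, to 0.58 with median centring (limma adjusted p = 0.0775) and 0.40 with the deposited unscaled values (0.383). Oat, which degrades ornithine, rose 2.39-fold in 4-18 (limma adjusted p = 0.0144, called under 29 of 31 alternatives). Odc1, which turns ornithine into putrescine, fell 2.21-fold in shRNA3T (limma adjusted p = 5.74e-05, 3 shRNA3T arrays, called under 27 of 31 alternatives).

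Among the 18 genes of transamination and of serine, glycine and threonine metabolism, 1 was called higher and 2 lower in 4-18. None was called in 3-44 or shRNA3T by the same limma test. In 3-44 and shRNA3T, 2 and 6 of the 18 passed the adjusted p alone, where 8.14% and 12.2% of all genes did. There 6 and 8 had an unadjusted p under 0.05. Psph, the last step of serine synthesis, fell 2.47-fold in 4-18 (limma adjusted p = 0.0207), a call lost without CN-10 replicate 2 or 4-18 replicate 1 or 3 (limma adjusted p = 0.0573, 0.0665 and 0.0607), and its 3-44 arrays spread from 9.93 to 11.96. Of 7 genes of phenylalanine and tyrosine breakdown, the pathway of Tat and Hpd, 1 was called lower in 4-18 and 1 higher in shRNA3T. Of 9 genes of tryptophan breakdown, the pathway of Tdo2, Aadat was called. This kynurenine aminotransferase rose 2.82-fold in 4-18 and was 1.87-fold and 1.88-fold higher in 3-44 and shRNA3T (limma adjusted p = 0.000243 and 0.000135), under the 2-fold limit.

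Hal, the histidine ammonia-lyase, showed the largest difference from CN-10 among the 81 genes. Its arrays ran from 10.16 to 10.55 in CN-10, 7.38 to 7.99 in 4-18, 10.30 to 10.65 in 3-44 and 9.29 to 9.59 in the shRNA3T pool. The 4-18 arrays lay far below all others, and Hal fell 6.38-fold there against CN-10 (limma adjusted p = 1.75e-09). In shRNA3T it was 1.93-fold lower (limma adjusted p = 0.000169), past the limit without CN-10 replicate 3 (-1.04), and in 3-44 the log2 fold change was 0.07 (limma adjusted p = 0.851). Pipox, which oxidises pipecolate and sarcosine, rose 3.34-fold in 4-18 and 2.10-fold in 3-44, but its 4-18 mean rests on 2 arrays, because 2 spots had an outlier flag. The Pipox call in 3-44 held under 22 of 31 alternatives and was lost when CN-10 replicate 2 or 3 or 3-44 replicate 1, 2 or 4 was left out (limma adjusted p = 0.0816, 0.0927, 0.0798, 0.0749 and 0.0967).

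Bcat2, the mitochondrial branched-chain aminotransferase, was called in opposite directions. Its arrays ran from 10.35 to 10.54 in CN-10, 12.10 to 12.46 in 4-18, 8.70 to 9.26 in 3-44 and 8.82 to 9.01 in the shRNA3T pool. It rose 3.48-fold in 4-18 (limma adjusted p = 2.78e-08) and fell 2.72-fold in 3-44 and 2.85-fold in shRNA3T (1.46e-06 and 6.28e-07). The difference between 4-18 and 3-44 was 9.48-fold (limma adjusted p = 6.28e-11). Bckdha, a subunit of the branched-chain keto acid dehydrogenase that acts next, rose 2.15-fold in 4-18 (limma adjusted p = 0.000505), a call that held under 25 of 31 alternatives and was lost without CN-10 replicate 1 (0.99 on the log2 scale), with median centring (0.72) and with the deposited unscaled values (0.48, limma adjusted p = 0.324). The calls of Agmat and Bcat2 in the 3 groups and of Hal in 4-18 held under 31 of 31.

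**Figure D4:**
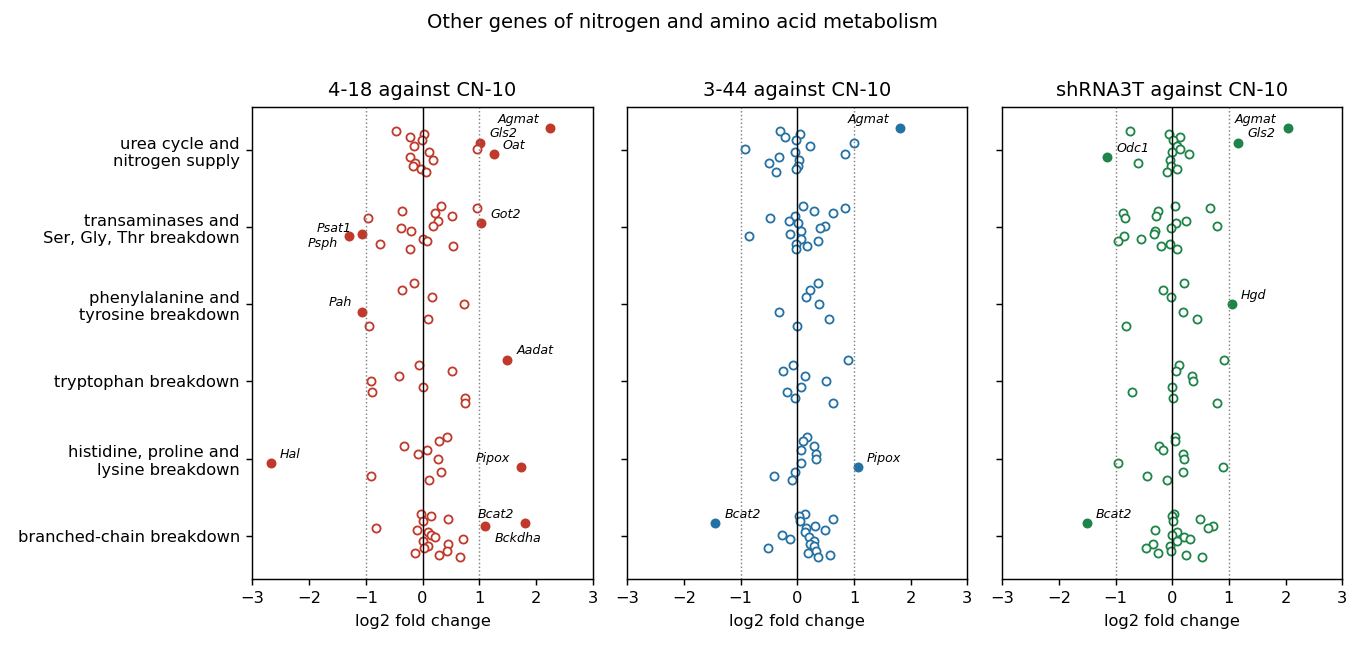
Log2 fold change of each of the 81 other genes of nitrogen and amino acid metabolism against CN-10, grouped by list, in 4-18, 3-44 and shRNA3T. Filled points are genes called at 2-fold and a limma adjusted p under 0.05 and are named, and dotted lines mark the 2-fold limit. Agmat is called higher in all 3 panels and Bcat2 higher in 4-18 and lower in the other panels.

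Of 17 regulators of liver metabolism on the array, 1 was called against CN-10 in 4-18, where 6.15% of all genes were, and none in 3-44 or shRNA3T by limma. The adjusted p alone was passed by 9, 4 and 3 of the 17 in 4-18, 3-44 and shRNA3T, where 24.1%, 8.14% and 12.2% of all genes did, and 9, 7 and 5 had an unadjusted p under 0.05. The called gene was Ppargc1a, a coactivator that drives gluconeogenic and mitochondrial genes in fasting. It read 8.71, 8.81, 8.15 and 8.65 in 4-18 and was near background on each array of the other groups, with a mean of 6.26 in CN-10. It was at least 4.72-fold higher in 4-18 than in CN-10 (limma adjusted p = 1.62e-09). For this bound each CN-10 array took the higher of its lowest signal well above background and the probe's own signal. Nr3c1, the glucocorticoid receptor, changed by -0.19, 0.37 and 0.12 on the log2 scale in the 3 silenced groups, and none of these passed (limma adjusted p = 0.611, 0.42 and 0.869).

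Promoter windows of 7 members were matched by symbol in RefSeq (GRCr8), from 250 bases before to 50 after the start. Sds was not matched. The windows were searched on both strands for TGACGTCA and its part TGACG (cAMP response), TTGCNNNAA (C/EBP), AGAACA (glucocorticoid receptor half-site), the HNF1 motif, the HNF4 direct repeat and its part AGGTCA, and TATAAA. Of all 33469 windows of this length, 21.2% hold TGACG, 9.6% TTGCNNNAA, 20.7% AGAACA, 16.2% AGGTCA and 14.2% TATAAA. The members' windows held 3 matches, which were AGGTCA in Hpd at -69 to -64 and TATAAA in Tdo2 at -228 to -223 and, on the reverse strand, in Ass1 at -60 to -55. The windows of Cps1, Otc, Asl and Tat held none of these letters. The 250 bases before the start are shown for the 2 members called against CN-10, chr9:76063613-76063862 for Cps1 and chr12:32295658-32295907 for Asl, both on the plus strand of GRCr8, in lower case throughout because no motif was found to capitalise.
Cps1 upstream: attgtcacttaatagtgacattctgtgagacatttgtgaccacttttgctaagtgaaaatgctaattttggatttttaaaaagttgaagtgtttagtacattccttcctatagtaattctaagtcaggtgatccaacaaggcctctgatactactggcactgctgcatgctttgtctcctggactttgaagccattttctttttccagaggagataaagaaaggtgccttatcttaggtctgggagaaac
Asl upstream: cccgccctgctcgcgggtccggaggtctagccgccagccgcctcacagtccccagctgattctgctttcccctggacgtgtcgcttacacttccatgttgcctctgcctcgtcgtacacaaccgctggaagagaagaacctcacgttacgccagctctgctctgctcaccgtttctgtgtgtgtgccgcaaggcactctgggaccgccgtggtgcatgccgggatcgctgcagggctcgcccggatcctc

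The genes whose pattern over the 16 arrays was most like that of each detected member were sought among 11079 genes detected on every array. The arrays fall into 4 groups and share slides, so these correlations describe the libraries. Cps1 was most like Asgr1 (Pearson r = 0.95), Serpina1 (0.93) and Klf11 (0.92), of which Asgr1, a subunit of the asialoglycoprotein receptor, and Serpina1, alpha-1-antitrypsin, are made by hepatocytes. Asl was most like Bmp1, Hsd17b1 and Ninj2 (0.98 each). Tat was most like a transcript listed as ENSRNOT00000003074 (0.94), Cald1 and Faah (0.93 each). Ass1 was most like a probe without a gene name (0.89), Nhp2l1 and Pax8 (0.87 each). No other member of the 8 was among these.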

How the data were processed

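The authors deposited the scanner output of 16 single-colour arrays (Feature Extraction 10.7.3.1, probe positions on rn4), in which each spot has a mean signal and a local background as an intensity on a linear scale, not normalized, with flags. They also deposited a table of values for each array, of the unit other, since it had lost its decimal points. Once these were put back, it equalled log2 of the normexp-corrected median signal (largest difference 3.99e-11) and was not scaled between arrays. The authors' comparisons used limma's moderated statistic with limits of 2-fold and a false discovery rate of 5%. Their background and normalization options are not given in the sources used here.

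From the intensities, background was corrected by normexp (offset 50), control spots were dropped, arrays were quantile normalized and spots of a probe averaged, leaving out spots with an outlier flag. A probe was well above background on an array if at least 50% of its spots had that flag. Limma 3.58.1 in R 4.3.3 fitted 1 mean per group to all 16 arrays, with Benjamini-Hochberg adjustment over all 30367 probes. A gene is represented by its probe with the highest mean. A gene was called at 2-fold or more and adjusted p under 0.05. For each member the 8 arrays of a comparison were also permuted (exact, two-sided). Steps were tested on simulated data. The labels call the replicates biological and do not say how they were separated, so p-values measure the spread between these samples. Precision is limited by 4 arrays a group.

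The members and gene lists were chosen with earlier results of these data known. Of the 9 genes chosen, 1 is not reported here, and counts of members leave it out. Named genes are the members, the 10 pathway genes with the largest change among those called against CN-10, the 3 genes most like each detected member, Pdrg1, and the markers and regulators given as examples, which were chosen after their values were seen. Alternatives covered background correction, scaling, filters, the fold limit, array weights, the replicate block and leaving out arrays.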

Additional observations from a re-analysis of the deposited data

Results flagged for a closer look

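Among 36 sets of 4 arrays (the 8 members and Pdrg1 in 4 groups), 5 had an array whose gap to its neighbour, as a share of the range of the 4, exceeded Dixon's critical value of 0.829. Chance gives about 1 in 20. Tdo2 on CN-10 replicate 1 (6.41, gap share 0.901) and Hpd on 3-44 replicate 2 (6.57, gap share 0.944) are values near background. Pdrg1 was lowest on replicate 1 in all 4 groups, at 13.41 in CN-10, where the other arrays read 13.51 to 13.88, and, with a gap beyond the critical value, at 11.57 in 4-18 (gap share 0.947), 11.89 in 3-44 (0.913) and 12.39 in shRNA3T (0.879). Without replicate 1 of every group the Pdrg1 log2 fold changes against CN-10 were -0.41, -0.82 and -0.79 (limma adjusted p = 0.00647, 0.000306 and 0.000212).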

How the results depend on the processing

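No member's call changed direction under the alternatives run. Cps1 was called in shRNA3T against CN-10, and lower in 4-18 than in shRNA3T, under 31 of 31, and Asl in 4-18 against CN-10 under 29 of 31. Asl was called in 4-18 under 25 of 31 against 3-44 and 27 of 31 against shRNA3T, and Cps1 in 3-44 against shRNA3T under 24 of 31. Scaling of the processed signal to the 75th percentile, a change of both signal and scaling, moved the median of all probes by 0.20 in 4-18 and -0.23 in shRNA3T against CN-10. The cause of the changed counts below was not tested.

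Counts of members called became, with 75th percentile scaling of the processed signal, 3 in shRNA3T against CN-10, 2 in 4-18 against 3-44 and 0 in 3-44 against shRNA3T. With the processed signal quantile normalized they were 2 in 4-18, 1 in 3-44 and 3 in shRNA3T against CN-10, and 2 in 4-18 against 3-44 and in 3-44 against shRNA3T. Median centring gave 0 and the deposited unscaled values 2 in 4-18 against CN-10, and array weights gave 0 in 3-44 against shRNA3T. At 1.5-fold the counts were 2 in 4-18, 1 in 3-44 and 1 in shRNA3T against CN-10, 2 in 4-18 against 3-44 and 3 in 4-18 against shRNA3T. Without a fold limit they were 3, 1 and 2 against CN-10, 2 in 4-18 against 3-44, 4 in 4-18 against shRNA3T and 1 in 3-44 against shRNA3T. The shares of all genes without a fold limit were, in the same order, 24.1%, 8.14%, 12.2%, 22.5%, 20.5% and 10.9%. Shares of all genes at 1.5-fold or under other processing were not taken, so those counts do not set the members apart.

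For the pathway genes too, shares of all genes at 1.5-fold or under other processing were not taken, so their counts do not set them apart. Without a fold limit the shares of all genes against CN-10 were 24.1% in 4-18, 8.14% in 3-44 and 12.2% in shRNA3T. For the 81 pathway genes, 4-18 against CN-10 gave 12 calls, and 19 with the processed signal quantile normalized, 23 at 1.5-fold and 28 without a fold limit. In 3-44 the 3 calls became 9 and 11 at these last limits, and in shRNA3T the 5 became 18 and 19, and 2 with the deposited values. In 4-18 against 3-44 the 5 became 12 with 75th percentile scaling of the processed signal, 13 with that signal quantile normalized, 17 with median centring, 20 with the deposited values, 17 at 1.5-fold and 28 without a limit. Of the 5, 3 were higher and 2 lower in 4-18, against 6 and 6, 5 and 8, 3 and 14, and 2 and 18 under these first 4 alternatives. In 4-18 against shRNA3T the 7 became 13 with 75th percentile scaling, 13 with median centring, 11 with the deposited values, and 15 and 20 at the fold limits (the 7 were 3 higher and 4 lower, against 8 and 5, 5 and 8, and 1 and 10 under the first 3 alternatives), and in 3-44 against shRNA3T the 4 became 8 and 14 at the fold limits.

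Leaving out arrays gave 1 to 1, 0 to 0 and 1 to 1 members called against CN-10 in 4-18, 3-44 and shRNA3T, 0 to 2 in 4-18 against 3-44, 2 to 3 in 4-18 against shRNA3T and 0 to 1 in 3-44 against shRNA3T. The pathway counts ran 9 to 14, 2 to 4, 4 to 6, 4 to 8, 6 to 8 and 3 to 4 in the same order. The labels give the arrays of different groups only a shared number, and the numbers were not taken to pair them, because 15 and not all of the 24 pairs with the same number correlated above 0.1 (-0.12 to 0.50, median 0.15). Of 16 arrays, 8 correlated best with one of their own number. With the replicate block, members called stayed at 1, 0, 1, 1, 2 and 1. Pathway genes called went from 3 to 4 in 3-44 and from 5 to 4 in shRNA3T against CN-10. In 4-18 against shRNA3T they went from 7 to 8, and in the other comparisons their number stayed the same. All genes called in 4-18 against CN-10 went from 1616 to 1632.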
